A study of Mus musculus with 64 samples.

Results

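The genes of the cytosolic ribosomal proteins were measured by bulk RNA sequencing of mouse prefrontal cortex (PFC, called frontal cortex in the labels) and hypothalamus. A gene was a member when its symbol was that of a large-subunit (Rpl), small-subunit (Rps), stalk (Rplp0, Rplp1, Rplp2) or Rpsa gene, when it was annotated as protein-coding and when its mean level reached 1 count in 1000000 counted reads (CPM) or more, with kinases and pseudogene symbols left out. The pattern matched 89 symbols, of which 6 were not protein-coding (Rps12l1, Rpl32l, Rps3a2, Rps3a3, Rpl6l and Rps4l) and 3 had a mean under the minimum (Rpl10l, Rpl39l and Rpl3l). The remaining 80 members, of 55401 genes counted, were 45 large-subunit, 32 small-subunit and 3 stalk genes, and all 80 passed the filter on low counts. The rule itself uses symbol, annotation and mean level and no difference between groups.

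The mice were male C57BL/6J animals, fed chow and housed in groups, and were 10 weeks old at injection. They received 1 intraperitoneal injection of psilocybin (3 mg/kg), a serotonergic psychedelic, or of isotonic saline (vehicle), and tissue was taken 3 h or 4 weeks later. The 32 mice each gave both regions, so that 8 groups of 8 samples were formed by region, treatment and harvest. Each of the 8 cages held 1 mouse of each treatment and harvest. Mice harvested at 4 weeks were also older, so age and time since injection cannot be told apart. RNA of cages 1 to 4 and of cages 5 to 8 was extracted in separate pools, A and B for the hypothalamus and C and D for the PFC. Pool and cage set, and likewise region and extraction, cannot be told apart.

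The ribosome is built from ribosomal RNA and a set of proteins that are needed in nearly equal amounts. Their mRNAs are short, abundant and mostly of the TOP class, which starts with a C followed by a run of pyrimidines. Through that run, the mTORC1 pathway and the RNA-binding protein LARP1 set how strongly these mRNAs are translated and how well they are kept, so a change in ribosome production need not show in mRNA levels. S6, encoded by Rps6, is phosphorylated by the S6 kinases, and Rplp0 (also called 36B4) is widely used as a reference gene in quantitative PCR. A few members have a paralog that can take their place in the ribosome, among them Rpl22l1 for Rpl22 and Rps27l for Rps27. Rpl7l1 is a more distant relative of Rpl7 associated with ribosome assembly.

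The pyrimidine run at the start is the sequence feature by which this class of mRNA is known. RefSeq windows around an annotated start were at hand for 60 of the 80 members. A run of at least 8 C or T within 15 bases of a start was present for 27 of these 60 (45%), against 13.9% of 27025 symbols with such windows. In 43 of the 60 a RefSeq start lay within 100 bases of the start of the counted gene model, and the others may not sit at the counted start. The next 6 windows of 30 bases are shown for the members that the comparisons below turn on (GRCm38.p6, RefSeq start at the centre, written 5′ to 3′ on the gene's strand). Capitals mark the longest run of C and T in each window. Rpl22l1, Rps6 and Rps15a were lower in the PFC than in the hypothalamus in all 4 comparisons of regions. Rps12 differed strongly between extraction pools, Rplp0 is the reference gene and Rpl7l1 was the only member that edgeR called between harvests with all 62 libraries.
Rpl22l1 (chr3:28805493-28805522, + strand): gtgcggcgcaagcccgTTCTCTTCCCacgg
Rps6 (chr4:86857353-86857382, - strand): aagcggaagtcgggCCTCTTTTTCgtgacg
Rps15a (chr7:118116133-118116162, - strand): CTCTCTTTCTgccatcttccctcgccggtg
Rps12 (chr10:23787195-23787224, - strand): taccgtcatgcggccaccgccggCCTTTTC
Rplp0 (chr5:115559452-115559481, + strand): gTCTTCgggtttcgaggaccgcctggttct
Rpl7l1 (chr17:46782642-46782671, - strand): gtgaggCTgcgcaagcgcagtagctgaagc
The windows of Rpl22l1, Rps6 and Rps15a hold runs of 10 bases, while that of Rpl7l1 holds none longer than 2. The RefSeq start lay from 0 to 72 bases downstream of the start of the counted gene model for these 6 members, and a window without a run says only that the letters are not in these 30 bases. Searched on either strand of windows from 250 bases before to 50 after a start, CCGGAAG was found for 41.7% of the members and 9.9% of all symbols, CTTTCC for 51.7% and 29.3%, AAGATGGC for 6 members and 3.2% of symbols, TATAAA for 11.7% and 15.7%, and CACGTG for 6 members and 8.1% of symbols.

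Of the 64 samples, 62 had at least 1000000 counted reads (8061033 to 70361839). The others, hypothalamus vehicle 3 h replicate 2 and PFC psilocybin 4 weeks replicate 3, held 211111 and 200066 and were not used, and their shares on the members were 1.07% (95% Wilson interval 1.03 to 1.12) and 0.472% (0.443 to 0.503), which cover counting error only. Summed PFC marker genes lay between 1322 and 1981 CPM in the PFC and between 108 and 233 CPM in the hypothalamus, and hypothalamus markers between 0.859 and 13.9 CPM and between 356 and 2663 CPM. Hypothalamus psilocybin 4 weeks replicate 5 stood apart in its counts on the members, on short genes and on hypothalamus markers. Its summed blood markers (738 CPM) were the highest of the hypothalamus libraries, with the next at 656 CPM. The values by edgeR that rest most on this library are given with and without it. It was kept in the tests unless stated.

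The 80 members together took a median of 1.07% of the counted reads. In the plot of the share by library, 61 of the 62 libraries lay between 0.639% and 1.43%, and hypothalamus psilocybin 4 weeks replicate 5 lay at 3.85%. In the PFC at 3 h the share ran from 0.727% over a median of 0.964% to 1.38% after psilocybin and from 0.639% over 1.07% to 1.21% after vehicle. At 4 weeks it ran from 0.664% over 0.993% to 1.16% after psilocybin and from 0.712% over 0.925% to 1.16% after vehicle. In the hypothalamus at 3 h it ran from 0.931% over 1.08% to 1.43% and from 1.00% over 1.15% to 1.35%. The treated and control groups overlapped in each case. In replicate 5, other protein-coding genes shorter than 1500 bases took 6.58% of the reads, against 1.99% to 2.49% in the rest of its group, and genes longer than 6000 bases took 24.8%, against 39.7% to 43.6%. The part of these values in the results below was tested only for gene length, by an offset. In bulk tissue, fewer cells of a type and less RNA per cell cannot be told apart.

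**Figure D1:**
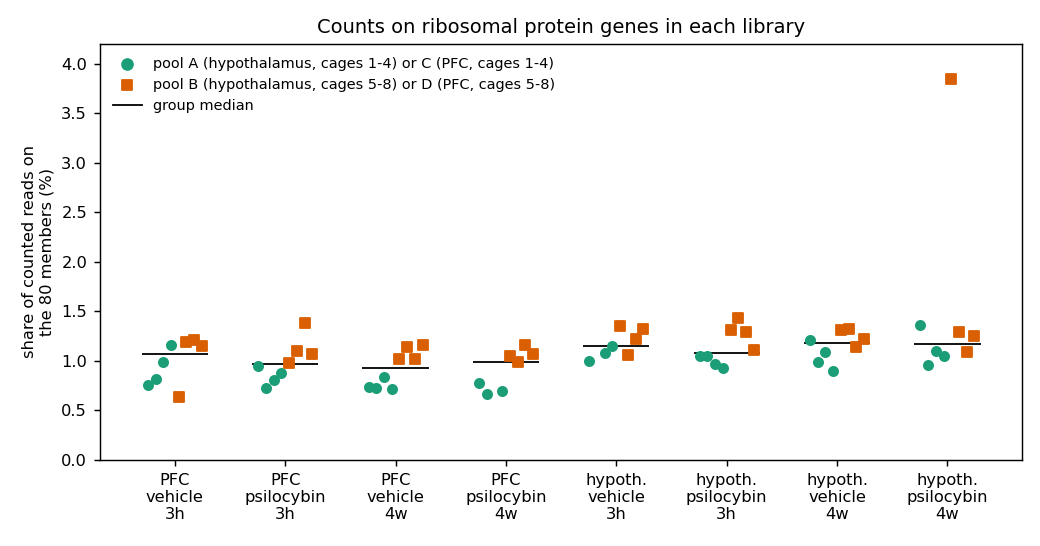
Share of counted reads (%) on the 80 ribosomal protein genes in each of the 62 libraries, by group, with the pool of each library (circles, cages 1 to 4; squares, cages 5 to 8) and the group median (line). Hypothalamus psilocybin 4 weeks replicate 5 sits at 3.85%, and the other 61 libraries lie between 0.639% and 1.43%.

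Levels per unit of gene length, as TMM-scaled CPM per kilobase averaged over the 62 libraries, differed widely among members although their proteins are needed in similar amounts. The length was that of the gene model, from 383 bases for Rpl36 to 6270 for Rps15a, and its part in this spread was not tested. The highest levels per kilobase were those of Rplp1, which encodes an acidic stalk protein that recruits translation factors (590), Rps15 (398), Rpl4 (257), Rpl8 (226) and Rps21 (214). The lowest were those of Rps10 (2.48), Rpl24 (8.43), Rpl7l1 (13), Rps27l (14.8) and Rpl13a (14.8). The low values of Rps10, Rpl24 and Rpl13a are uncertain, because their exons overlap those of another gene model on the same strand (RPS10-NUDT3, Gm28037 and Gm45713), and reads shared between models may not be counted on either. Among the other members of known role, the level per kilobase was 94.5 for Rplp0, 45.3 for the stalk gene Rplp2, 92.1 for Rpsa, the laminin receptor subunit, 55.9 for Rps6, 96.7 for Rpl3, which lies at the peptidyl transferase centre, and 78.8 for Rps27a, a fusion with ubiquitin. The X-linked genes Rps4x, Rpl10 and Rpl39 were at 127, 88.5 and 25.2 per kilobase.

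**Figure D2:**
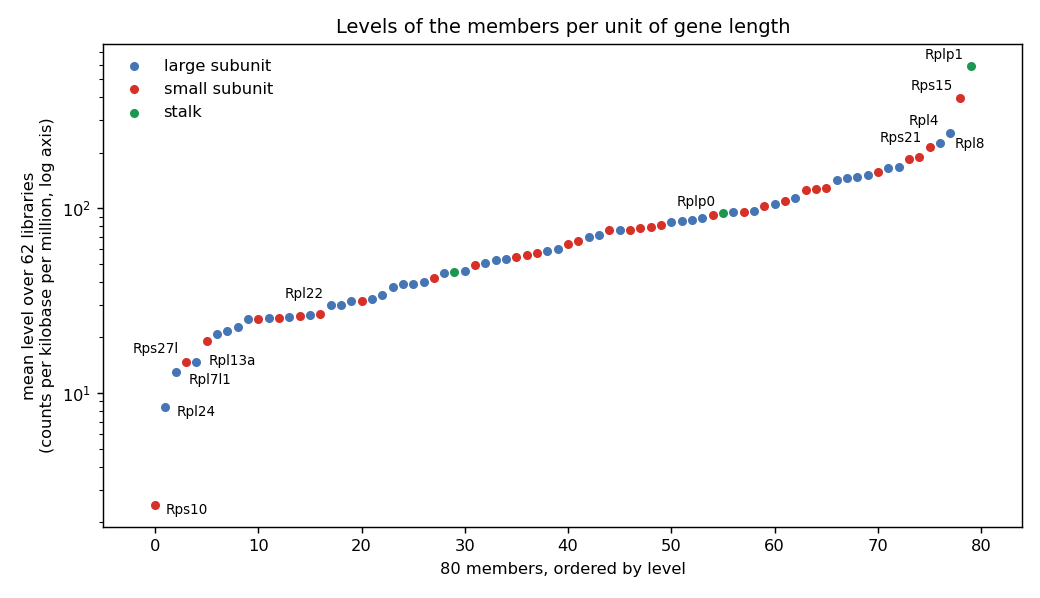
Mean level of each of the 80 members over 62 libraries in CPM per kilobase of gene model (log axis), ordered by level, coloured by subunit. Rplp1 is highest at 590 and Rps10 lowest at 2.48.

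Levels of ribosomal protein genes carry a further uncertainty, since 60 members have processed pseudogenes annotated under their own name, 298 in all and up to 24 for 1 member (Rps12 and Rpl31). The share of 52-base words of a member's gene model that also occur in another gene, on either strand, had a median of 23.5%. It reached 83.5% for Rpl35, 80.5% for Rpl23a and 79.8% for Rpl36. The gene sharing most words with Rpl35 was Wdr38, a protein-coding gene overlapping it on the opposite strand. The share is therefore not one of pseudogenes alone. It was over 50% for 7 members. For the members on which the comparisons turn it was 3.2% for Rpl22, 14.4% for Rpl22l1, 6.3% for Rpl7l1, 5.0% for Rps15a, 43.7% for Rps6, 34.8% for Rpl3 and 34.4% for Rpl29.

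The members varied together between libraries. After group and pool had been removed, and without replicate 5, the correlation of a member with the mean of the others over 61 libraries had a median of 0.91, and 41 members had an r over 0.9. Rps23, part of the decoding centre, was closest to the rest (0.977). Rpl15 (0.35), Rpl24 (0.52), Rpl7l1 (0.56) and Rps15a (0.63) followed it least. These are descriptions across libraries that share depth and composition. The spread of a member around its group and pool, as the residual SD of log2 CPM, had a median of 0.212, from 0.098 for Rpl7l1 to 0.370 for Rps28, against a median of 0.164 for 11560 other genes in the same range of CPM. The median gene model of the members was 1805.5 bases long, against 3809 for all tested genes.

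Psilocybin was compared with vehicle in each region and at each harvest. No ribosomal protein gene passed the test after psilocybin at either harvest in either region. The tests were edgeR quasi-likelihood tests with Benjamini-Hochberg adjustment over 18971 genes at a threshold of 0.05, and the counts were 0 of 80 in each of the 4 comparisons. The background of all genes called was 0.0105% in the PFC at 3 h (0.00527% higher and 0.00527% lower) and 0% in the other comparisons. DESeq2 and voom with quality weights also called 0 of 80 in each, beside 0.0474%, 0.1%, 0% and 0.0685% of all genes for DESeq2 and 6.49%, 0%, 0% and 0% for voom, in the order PFC 3 h, PFC 4 weeks, hypothalamus 3 h and hypothalamus 4 weeks. At an unadjusted p under 0.05, edgeR gave 0, 0, 0 and 72 members, DESeq2 0, 0, 0 and 73, and voom 1, 0, 4 and 0, in the same order. The shares of all genes at that level were 7.23%, 2.4%, 1.78% and 9.61% in edgeR, 8.09%, 2.64%, 1.89% and 10.5% in DESeq2 and 21.5%, 4.94%, 5.71% and 4.23% in voom. Without replicate 5, edgeR gave 0 members in the hypothalamus at 4 weeks, beside 1.91% of all genes.

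In the PFC at 3 h the log2 fold changes of the members ran from -0.21 to 0.28 with a median of -0.012, and the median of all genes was -0.007. There were 33 positive and 47 negative values. Without PFC psilocybin 3 h replicate 7, the library with the highest share in its group, the median was -0.042, with 17 positive values. The smallest p belonged to Rps29, a small zinc-binding protein of the small subunit. Its level ran from 91.1 over a median of 113.6 to 196.6 CPM after psilocybin and from 51.3 over 103.7 to 182.2 CPM after vehicle. The groups overlapped over most of their range, and the difference was 0.28 on the log2 scale (SE 0.21, 95% interval -0.14 to 0.70, edgeR with Benjamini-Hochberg adjusted p = 0.813). Rpl23a, near the exit of the peptide tunnel, gave 0.14 (SE 0.14) and Rpl15 gave 0.09 (SE 0.084), with adjusted p of 0.872 and 0.873 by edgeR.

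In the PFC at 4 weeks the values ran from -0.14 to 0.07 (median -0.038, all genes -0.007), and 72 of 80 were negative. The members with the smallest p were Rpl29 (-0.13, SE 0.16), Rpl13a (-0.10), known as part of an interferon-gamma-activated inhibitor of translation, and Rpl23a (-0.10), all with an adjusted p of 1 by edgeR. In the hypothalamus at 3 h the values ran from -0.29 to 0.07 (median -0.019, all genes -0.0008). Rplp2, the partner of Rplp1 in the stalk, ran from 50.3 over 76.5 to 110.2 CPM after psilocybin and from 81.3 over 100.4 to 108.7 CPM after vehicle. The median treated library lay below the lowest control while the highest treated library exceeded the highest control, and the difference was -0.26 (SE 0.22, adjusted p = 1 by edgeR). Rpl36 gave -0.29 (SE 0.26) and Rps27l, a p53-responsive paralog of Rps27, gave -0.20 (SE 0.18).

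In the hypothalamus at 4 weeks all 80 values were positive, from 0.06 to 0.76 with a median of 0.396 (all genes 0.0097). Without replicate 5 the median was 0.032 and 61 values were positive, and with all libraries and an offset for gene length the median was 0.272. The greatest difference was that of Rpl36, which ran from 55.5 over 69.2 to 419 CPM after psilocybin and from 43.2 over 58.9 to 77.5 CPM after vehicle. The 419 CPM was replicate 5, and the other 7 libraries ended at 74.3 CPM, inside the range of the controls. The log2 fold change of Rpl36 was 0.76 (SE 0.25, adjusted p = 0.448 by edgeR) with that library and 0.14 without it. Rplp2 went from 0.63 to 0.09 and Rpl13, of the large subunit, from 0.56 to 0.12 in the same way.

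**Figure D3:**
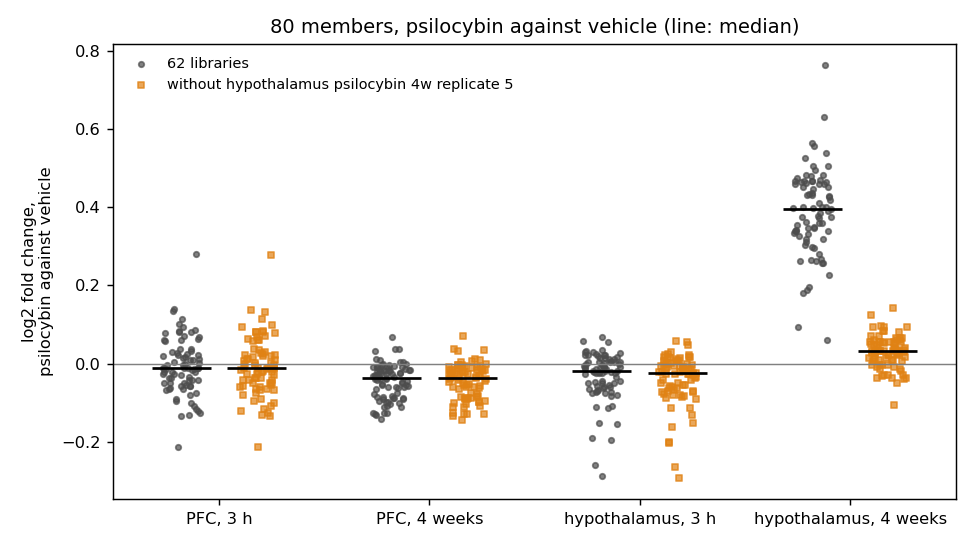
Log2 fold change of each of the 80 members, psilocybin against vehicle, in 4 comparisons, with all 62 libraries (circles) and without hypothalamus psilocybin 4 weeks replicate 5 (squares), and the median (line). The medians are -0.012, -0.038, -0.019 and 0.396 with all libraries, and the last is 0.032 without replicate 5.

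How large a change could have gone unseen can be read from the intervals. The 95% interval of a member had a median half-width of 0.32 to 0.33 on the log2 scale. It lay wholly within a 1.5-fold change in either direction for 77, 77, 75 and 16 of the 80 members in the order above. Without replicate 5 the counts were 80, 80, 79 and 80.

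The reference gene Rplp0 (ENSMUSG00000067274.10, chr5:115559467-115563727, + strand, GRCm38) had similar levels in treated and control mice. In the PFC at 3 h it ran from 130.9 over 169.5 to 220.6 CPM after psilocybin and from 113.2 over 171.9 to 210.9 CPM after vehicle. At 4 weeks the values were 111.7, 157.0 and 176.0 CPM against 111.7, 146.4 and 182.0 CPM. The groups overlapped nearly fully in both. In the hypothalamus at 3 h the lowest, median and highest were 121.4, 139.3 and 181.9 CPM against 128.4, 147.0 and 175.1 CPM. At 4 weeks they were 124.0, 149.1 and 405.0 CPM against 123.9, 149.0 and 168.6 CPM, and without replicate 5 the highest treated value was 173.5 CPM. The log2 fold changes of Rplp0 were 0.02 (SE 0.12, 95% interval -0.23 to 0.27), -0.02, -0.02 and 0.26 (SE 0.12, adjusted p = 0.488 by edgeR), the last being 0.02 without replicate 5. Rps6, the S6 kinase substrate, gave -0.02, -0.05, -0.02 and 0.26, the last 0.05 without replicate 5.

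Whether the response differed between regions or harvests was tested by interaction terms, and 0 of 80 members were called in any of 4 (background 0%). DESeq2 and voom called 0 of 80 as well, beside at most 0.337% of all genes. At an unadjusted p under 0.05, edgeR gave 0 members for PFC minus hypothalamus at 3 h, 25 at 4 weeks, 0 for 3 h minus 4 weeks in the PFC and 24 in the hypothalamus, beside 2.78%, 6.69%, 3.08% and 5.27% of all genes. Without replicate 5 the members were 1, 0, 0 and 0, beside 4%, 2.85%, 4.36% and 2.28% of all genes. For PFC minus hypothalamus the smallest p at 3 h were those of Rps29 (0.43), Rplp1 (0.25) and Rpl36 (0.30), and at 4 weeks those of Rpl13 (-0.69), Rplp2 (-0.74) and Rpl36 (-0.87). Without replicate 5 the last were -0.25, -0.20 and -0.25. For 3 h minus 4 weeks they were those of Rpl23a (0.24), Rps26 (0.23) and Rpl23 (0.14) in the PFC and of Rplp2 (-0.89), Rpl36 (-1.05) and Rpl13 (-0.72) in the hypothalamus, where the values without replicate 5 were -0.36, -0.44 and -0.29.

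Other genes around the ribosome gave the same counts. After psilocybin, edgeR called 0 of 4 ribosomal proteins outside the symbol pattern (Fau, Rack1 and Rpl36al among them), 0 of 19 further TOP mRNAs of translation, 0 of 30 genes of ribosome biogenesis, 0 of 15 genes of mTORC1 and TOP control and 0 of 77 mitochondrial ribosomal proteins in each comparison. The values with the smallest p in the PFC at 3 h were those of Rrs1, an assembly factor of the large subunit (0.22, adjusted p = 0.453 by edgeR), and Pabpc1, the poly(A)-binding protein (0.11, adjusted p = 0.687 by edgeR). In the hypothalamus at 4 weeks the median of the mitochondrial ribosomal proteins was 0.249 with replicate 5 and 0.003 without it.

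Between harvests, 3 h was compared with 4 weeks within a treatment. In the PFC of vehicle mice 79 of 80 members had a positive value (median 0.159, range -0.01 to 0.30, all genes -0.004), but only Rpl7l1 was called, 1 of 80 members against a background of 4.72% of all genes (2.39% higher). Rpl7l1 (ENSMUSG00000063888.7, chr17:46773907-46782656, - strand) ran from 42.5 over 46.2 to 52.7 CPM at 3 h and from 35.4 over 38.2 to 42.6 CPM at 4 weeks. The groups met only at their ends, and the difference was 0.28 (SE 0.062, edgeR adjusted p = 0.00349). In psilocybin mice Rpl7l1 was again the 1 member called, against a background of 5.96% (2.7% higher, 3.26% lower). It ran from 40.9 over 46.4 to 51.0 CPM at 3 h and from 33.1 over 40.6 to 45.4 CPM at 4 weeks, and the difference was 0.23 (SE 0.064, edgeR adjusted p = 0.0227). The groups overlapped between 40.9 and 45.4 CPM.

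The other members gave positive values of similar size in the PFC of psilocybin mice (78 of 80, median 0.194, all genes 0.008), with wider errors. Rpl23a gave 0.36 (edgeR adjusted p = 0.125), Rpl13a 0.30 (edgeR adjusted p = 0.196) and Rplp0 0.25 (edgeR adjusted p = 0.263). This count depended on the fit. It was 6 without hypothalamus psilocybin 4 weeks replicate 5, a library of the other region (background 11.3%, 5.43% higher), 16 in voom (background 19.1%) and 0 without the pool term. Rpl23a (adjusted p = 0.0108) and Rpl13a (adjusted p = 0.0116, both edgeR) were among the 6.

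In the hypothalamus no member was called between harvests by edgeR, in vehicle mice (background 0.685%, 0 at an unadjusted p under 0.05 beside 8.09% of all genes, DESeq2 0, voom 1 beside 7.25% of all genes) or in psilocybin mice (background 1.16%, of which 0.743% higher, 59 at an unadjusted p under 0.05 beside 17.4% of all genes, DESeq2 2 beside 2.36% of all genes, voom 0). In vehicle mice 66 of 80 values were positive with a median of 0.035, and all genes had a median of 0.002. Rpl7l1 ran from 44.1 over 50.6 to 54.2 CPM at 3 h and from 42.2 over 44.0 to 49.4 CPM at 4 weeks, a difference of 0.13 (SE 0.064, edgeR adjusted p = 0.627). In psilocybin mice the median was -0.375 (all genes -0.029) and became -0.007 without replicate 5, where 0 members had an unadjusted p under 0.05, beside 10.1% of all genes. Rpl36 gave -0.82 with that library (edgeR adjusted p = 0.0831) and -0.18 without it. Whether the harvest difference of Rpl7l1 differed between regions was not tested.

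Among the other genes of ribosome production, 2 of 30 biogenesis genes were called in the PFC of vehicle mice, both higher at 3 h, beside the 4.72% of all genes called there. They were Bysl, an assembly factor of the small subunit (0.26, edgeR adjusted p = 0.0401), and Ubtf, a factor for RNA polymerase I (0.19, edgeR adjusted p = 0.0405). Of the 15 mTORC1 and TOP control genes, Eif4ebp2, a translational repressor that mTORC1 inhibits, was called (0.27, edgeR adjusted p = 0.00565). In psilocybin mice, where 5.96% of all genes were called, 3 biogenesis genes, Rrs1 (0.27) and Gtpbp4 (0.23) among them, and 1 TOP mRNA, Pabpc1 (0.20), were higher at 3 h, while Rps6kb2, an S6 kinase (-0.41), and Mrps18b (-0.30) were lower. In the hypothalamus none of these lists had a call in vehicle mice, and Eif4ebp2 (0.28) was higher and Mrpl2 (-0.52) lower at 3 h in psilocybin mice. Without replicate 5, Eif4ebp2 gave 0.23 (edgeR adjusted p = 0.0316) and Mrpl2 -0.19 (edgeR adjusted p = 0.303). The 4 ribosomal proteins outside the pattern had no call between harvests.

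Between the regions, a smaller share of the members than of all genes was called, except in psilocybin mice at 4 weeks. There the share was larger by edgeR in the fit of all 62 libraries, also when scaled by total counts alone (76 of 80 beside 60.7%). It was larger as well with the cage or the mouse as a block, as given below. It was smaller without replicate 5, in voom (49 of 80 beside 65.1%) and with only the groups compared (37 of 80 beside 49.1%). Of all genes 54.9% were called between PFC and hypothalamus in vehicle mice at 3 h, 55.2% in vehicle mice at 4 weeks, 56.2% in psilocybin mice at 3 h and 58% in psilocybin mice at 4 weeks. Higher in the PFC were 29.1%, 29.5%, 29.5% and 28.6% of all genes, and lower were 25.8%, 25.7%, 26.8% and 29.4%. The members called were 10 (4 higher and 6 lower in the PFC), 17 (2 and 15), 9 (5 and 4) and 71 (0 and 71). Without replicate 5 the counts were 23 (8 and 15), 35 (4 and 31), 26 (10 and 16) and 41 (2 and 39), beside 59.7%, 60.3%, 61% and 59% of all genes (31.6%, 32.3%, 32.1% and 30.8% higher, 28.1%, 28%, 29% and 28.2% lower). In that fit the members called lower were a larger share than all genes called lower in both treatments at 4 weeks, and a smaller share at 3 h. Scaled by total counts alone, which moved the median of all genes to between -0.14 and -0.18, the counts were 24 (1 and 23), 39 (0 and 39), 28 (1 and 27) and 76 (0 and 76), beside 57.9%, 58%, 60.5% and 60.7% of all genes. The median log2 fold changes were -0.062, -0.169, -0.038 and -0.621, against 0.028, 0.042, 0.024 and -0.003 for all genes. No member had levels that separated all PFC from all hypothalamus libraries, while 6.57% of all genes did so with higher and 4.69% with lower levels in the PFC. Without replicate 5 it was again 0 members, beside 7.62% and 6.74% of all genes. Markers of cell types also moved with region. All 6 oligodendrocyte markers were called lower in the PFC in the 4 comparisons, with group medians of their summed level from 3210 to 4043 CPM in the PFC and from 8053 to 9753 CPM in the hypothalamus. At least 5 of 7 microglia markers were called higher (549 to 628 CPM against 339 to 390 CPM), and 0 of 5 blood markers were called. The part of cell types in the member differences was not tested.

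Called lower in the PFC in all 4 comparisons were Rpl22l1, Rps6, Rps15a and Rpl3. Without replicate 5 there were 10 such members, Rpl14, Rpl23a, Rpl6 and Rps9 among the further ones, and Rpl22 and Rpl29 were called higher in all 4. The share of all genes called in all 4 is not given here, so these counts cannot be set against a background. Rps6 (ENSMUSG00000028495.14, chr4:86854660-86857412, - strand) ran from 51.0 over 72.8 to 102 CPM in the PFC and from 76.9 over 100 to 138 CPM in the hypothalamus without replicate 5. The upper PFC libraries overlapped the lower hypothalamus libraries. The differences of Rps6 were -0.50 (SE 0.13), -0.53, -0.50 and -0.85, the last -0.63 without replicate 5. Rps15a (ENSMUSG00000008683.16, chr7:118104372-118116188, - strand) ran from 113 over 137 to 162 CPM in the PFC and from 159 over 184 to 198 CPM in the hypothalamus without replicate 5, so that the regions overlapped only at their ends. Its differences were -0.36, -0.38, -0.42 and -0.57, the last -0.41 without replicate 5.

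Rpl3 (ENSMUSG00000060036.14, chr15:80077791-80091868, - strand) ran from 179 over 249 to 338 CPM in the PFC and from 286 over 336 to 431 CPM in the hypothalamus without replicate 5. Its differences were -0.39, -0.52, -0.40 and -0.85, the last -0.58 without replicate 5. Further members lower in the PFC were called in some comparisons only, such as Rps27l (-0.46 in vehicle mice at 3 h and -0.51 at 4 weeks) and Rpl23a (-0.40 at 3 h). In psilocybin mice at 4 weeks, the comparison that holds replicate 5, the values of greatest size were those of Rpl36 (-1.24), Rps21 (-1.07), Rps28 (-1.04), Rpl22l1 (-0.995) and Rps12 (-0.92), and without it they were -0.61, -0.58, -0.45, -0.74 and -0.55.

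Members called higher in the PFC included Rpl29, Rpl12, Rps2 and Rpl13a. Rpl29, a basic protein on the outside of the large subunit, ran from 50.5 over 72.4 to 140 CPM in the PFC and from 40.3 over 53.3 to 72.2 CPM in the hypothalamus without replicate 5. The median PFC library lay just above the highest hypothalamus library, and the differences were 0.53 in vehicle mice at 3 h, 0.41 at 4 weeks and 0.60 in psilocybin mice at 3 h, all called. Rpl12, of the stalk base, was called in vehicle mice (0.41) and psilocybin mice (0.48) at 3 h, as was Rps2 (0.32 and 0.42), at the mRNA entry, and Rpl13a (0.34) was called in psilocybin mice at 3 h only. In psilocybin mice at 4 weeks none of these was called with all libraries. Rpl29 gave -0.07 there (edgeR adjusted p = 0.727) and 0.28 without replicate 5 (edgeR adjusted p = 0.0227). Rpl12 gave -0.14 and 0.22, Rps2 -0.14 and 0.15, and Rpl13a -0.27 and 0.04, with and without that library.

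Rpl22 and its paralog Rpl22l1 differed in opposite directions. Both proteins bind RNA and fill the same place in the large subunit, and RPL22 is known to repress Rpl22l1. Rpl22 (ENSMUSG00000028936.15, chr4:152325742-152332476, + strand) ran from 76.2 over 98.6 to 110.6 CPM in the PFC and from 62.8 over 75.1 to 95.3 CPM in the hypothalamus without replicate 5. Rpl22l1 (ENSMUSG00000039221.10, chr3:28805436-28807415, + strand) ran from 32.2 over 44.6 to 58.4 CPM and from 53.9 over 70.7 to 93.5 CPM. The regions overlapped between 76.2 and 95.3 CPM for Rpl22, and over a shorter stretch, between 53.9 and 58.4 CPM, for Rpl22l1. Rpl22 was higher in the PFC by 0.40 in vehicle mice at 3 h (SE 0.094, edgeR adjusted p = 0.000219), 0.33 at 4 weeks and 0.35 in psilocybin mice at 3 h. Rpl22l1 was lower by -0.59 (SE 0.14, edgeR adjusted p = 0.000397), -0.70, -0.62 and -0.995, the last -0.74 without replicate 5. In psilocybin mice at 4 weeks Rpl22 gave 0.11 (edgeR adjusted p = 0.312) and 0.29 without replicate 5 (edgeR adjusted p = 0.000102).

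The ratio of Rpl22 to Rpl22l1 per kilobase separated the regions. It was 1.497 ± 0.19 (SD, n = 31) in the PFC, from 1.21 to 1.97, and 0.731 ± 0.058 (SD, n = 31) in the hypothalamus, from 0.5683 to 0.850. No hypothalamus library, replicate 5 included, reached the lowest PFC library, and the group means lay between 1.49 and 1.51 in the 4 PFC groups and between 0.715 and 0.749 in the 4 hypothalamus groups. Per kilobase, Rpl22 was at 32.8 CPM and Rpl22l1 at 22.3 CPM in the PFC, and at 25.8 and 35.2 CPM in the hypothalamus without replicate 5. The ratio was formed after the values were seen and is given as a description. The other paralog pairs showed smaller contrasts, with a mean ratio of Rps27 to Rps27l per kilobase of 10.1 in the PFC and 7.77 in the hypothalamus, and of Rpl7 to Rpl7l1 of 6.66 and 6.37.

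**Figure D4:**
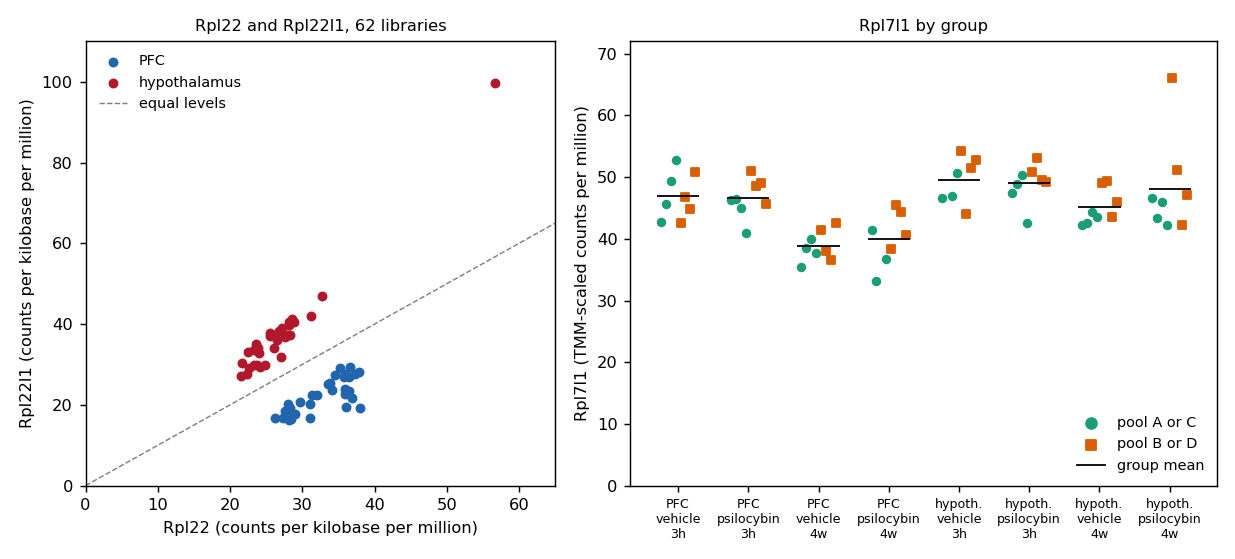
Left, Rpl22l1 (vertical axis) against Rpl22 (horizontal axis) in CPM per kilobase in each of 62 libraries, with a dashed line at equal levels. All PFC libraries lie below the line (ratio 1.21 to 1.97) and all hypothalamus libraries above it (0.5683 to 0.850). Right, Rpl7l1 in CPM by library, group and pool with the group mean (line), lower at 4 weeks than at 3 h in the PFC of vehicle and psilocybin mice.

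Genes around the ribosome were called between regions as follows, given as higher and lower in the PFC in vehicle mice at 3 h and at 4 weeks, where 54.9% and 55.2% of all genes were called. The counts were 3 and 3, then 2 and 5 of 19 TOP mRNAs, 9 and 8, then 10 and 7 of 30 biogenesis genes, 5 and 0, then 5 and 1 of 15 mTORC1 and TOP control genes, and 10 and 6, then 8 and 6 of 77 mitochondrial ribosomal proteins. None of the 4 ribosomal proteins outside the pattern was called in these comparisons. The translational repressor Eif4ebp1 was higher in the PFC by 1.69, 1.53, 1.58 and 1.57 in the 4 comparisons, and Ubtf by 0.82, 0.82, 0.71 and 0.69. Pabpc1 was higher by 0.65, 0.59, 0.76 and 0.63, while the nucleolar chaperone Npm1 was lower (-0.52, -0.46, -0.41 and -0.48).

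Nearly all members differed between the extraction pools, a comparison added after the data were seen. In the PFC 74 of 80 members were higher in pool D than in pool C and none was lower, against a background of 24.9% of all genes called and 13.4% called higher. The median was 0.434, and that of all genes was -0.009. In the hypothalamus 78 members were higher in pool B than in pool A (background 17.4%, 9.79% higher), with a median of 0.441, and without replicate 5, a library of pool B, 69 were called (background 13.3%, 6.56% higher) with a median of 0.259. With all libraries, the members not called in the PFC were Rpl15, Rpl22l1, Rpl24, Rpl7l1, Rps10 and Rps15a. In the fit without replicate 5, 78 members were called in the PFC (background 34.2%, 17.8% higher), all but Rpl7l1 and Rps10, and they included the 69.

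Rps12, a small-subunit gene with 24 annotated pseudogenes, ran from 73.6 over 82.3 to 135 CPM in pool C and from 73.5 over 138 to 186 CPM in pool D. In the hypothalamus it ran from 93.6 over 112 to 189 CPM in pool A and from 124 over 165 to 202 CPM in pool B without replicate 5. The pools overlapped in both regions, with most libraries of D and B above most of C and A. The differences of Rps12 were 0.62 (SE 0.13, edgeR adjusted p = 0.00036) in the PFC and 0.59 in the hypothalamus, 0.40 without replicate 5 (edgeR adjusted p = 0.00271). Rplp0 ran from 112 over 131 to 193 CPM in pool C and from 113 over 176 to 221 CPM in pool D, a difference of 0.41 (SE 0.089). It ran from 121 over 131 to 174 CPM in pool A and from 132 over 166 to 182 CPM in pool B without replicate 5 (0.38, and 0.26 without it).

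The members with the greatest difference in the PFC were Rps29 (0.63, SE 0.15, edgeR adjusted p = 0.00181), Rps12, Rps28 (0.60), Rpl41 (0.59) and Rps21 (0.59), and Rpl7l1 had the smallest (0.08). In the hypothalamus they were Rpl36 (0.61), Rps21 (0.60), Rps12, Rpl41 (0.59) and Rps28 (0.59), and without replicate 5 these gave 0.30, 0.36, 0.40, 0.35 and 0.32, where Rpl36 and Rps28 were no longer called (edgeR adjusted p = 0.0967 and 0.0907). Rps28, Rps29 and Rpl41 encode some of the shortest ribosomal proteins. Rps15a gave 0.12 in the hypothalamus and 0.05 without replicate 5. Split by the pyrimidine run, the medians in the PFC were 0.449 for members with a run and 0.421 for members without one, and in the hypothalamus 0.428 and 0.442, or 0.256 and 0.262 without replicate 5.

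**Figure D5:**
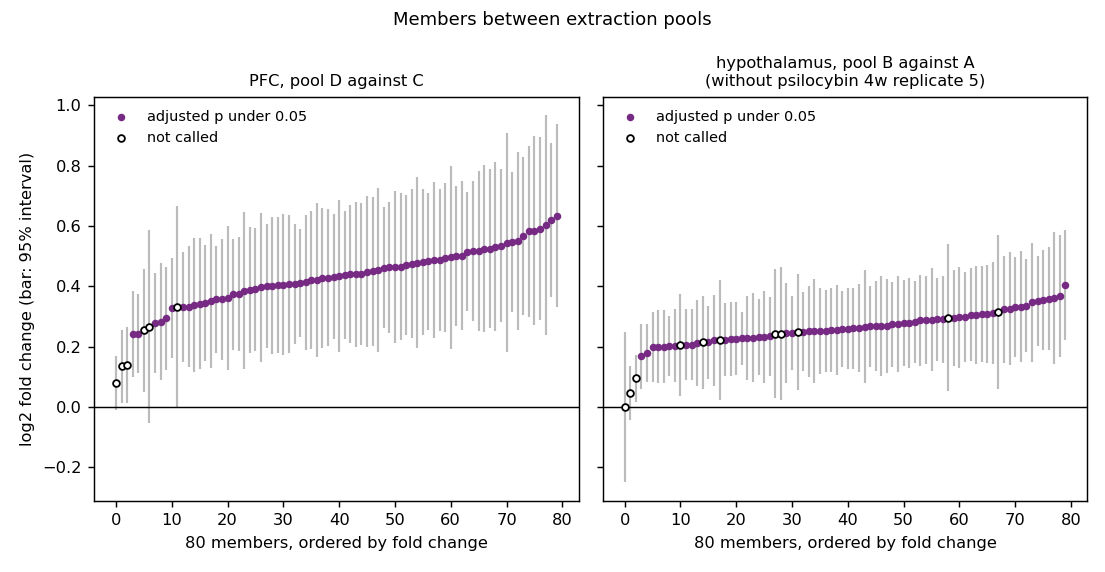
Log2 fold change of each member between extraction pools with its 95% interval, ordered by size, in the PFC (left, pool D against C) and in the hypothalamus without replicate 5 (right, pool B against A). Filled points have an adjusted p under 0.05 in edgeR, 74 on the left and 69 on the right, and all of them lie above 0.

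Within single groups, the pools separated many members. All libraries of pool D lay above all of pool C for 35 of 80 members in PFC psilocybin 3 h (5.46% of all genes), 71 in PFC psilocybin 4 weeks (13.2%), 74 in PFC vehicle 4 weeks (9.37%) and 0 in PFC vehicle 3 h (0.643%). In the last group replicate 4 of pool C had a share of 1.16% and replicate 5 of pool D one of 0.639%, the lowest of the 62 libraries. In the hypothalamus pool B lay above pool A for 36 members in psilocybin 3 h (6.81%), 13 in vehicle 3 h (7.22%), 1 in psilocybin 4 weeks (2.46%; Rpl13a) and 15 in vehicle 4 weeks (2.3%). No member was separated in the opposite direction in any of the 8 groups, while the share of all genes so separated ran from 0.506% in PFC vehicle 3 h to 13.6% in PFC psilocybin 4 weeks.

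Gene length and other cell markers moved with the pools. In the PFC, other protein-coding genes of up to 1000 bases had a median of 0.25 between pools D and C (n = 313), those of 1000 to 1500 bases 0.17, those of 3000 to 4000 bases 0.02 and those longer than 6000 bases -0.08. The members had medians of 0.52, 0.47, 0.39 and 0.30 in the same classes, above the other genes in each. Only Rps15a and Rps24 were members longer than 6000 bases, so the last median rests on these alone. In the hypothalamus without replicate 5, members of up to 1000 bases had a median of 0.28 and other genes 0.19. All 6 oligodendrocyte, 6 astrocyte, 7 microglia, 7 striatum and 5 blood markers tested were called higher in pool D, 0 of 6 endothelial and 1 of 6 choroid plexus markers were, and 4 of 8 PFC markers were called lower. The summed oligodendrocyte markers had a median of 2742 CPM in pool C and 4588 CPM in pool D, the astrocyte markers 1415 and 2178 CPM and the blood markers 164 and 351 CPM. In the hypothalamus without replicate 5, the medians in pools A and B were 7974 and 9526 CPM for oligodendrocyte markers (0 of 6 called), 1731 and 2328 CPM for astrocyte markers (2 of 6 called higher), 329 and 395 CPM for microglia markers (5 of 7) and 148 and 240 CPM for blood markers (1 of 5). With an offset for gene length in each library, 74 members were higher in pool D (median 0.393, 24.7% of all genes called) and 74 in pool B (median 0.351, 14% of all genes). With the offset and without replicate 5, 77 were higher in pool D (median 0.391, 30.8% of all genes) and 63 in pool B (median 0.223, 10.8% of all genes). The part of tissue makeup in the pool difference was not tested, and pool and cage set cannot be told apart.

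The lists around the ribosome were compared between pools as well, and of all genes 13.4% were called higher and 11.4% lower in pool D. Higher in pool D were 2 of 4 ribosomal proteins outside the pattern, Rack1 (0.35), a scaffold on the small subunit, and Fau (0.54), whose product is cleaved to S30, and 10 of 19 TOP mRNAs, among them the elongation factor genes Eef1a1 (0.31) and Eef2 (0.24). Lower were 7 of 30 biogenesis genes, such as Nop56 (-0.19) and Wdr12 (-0.19), and 7 of 15 mTORC1 and TOP control genes, such as Rps6kb2 (-0.31) and Tsc1 (-0.21). Of 77 mitochondrial ribosomal proteins, 8 were higher, such as Mrpl52 (0.63). The medians of the 5 lists in the PFC were 0.307, 0.176, -0.041, -0.124 and 0.089. In the hypothalamus without replicate 5 the higher and lower counts were 2 and 0, 10 and 0, 2 and 2, 0 and 2, and 10 and 0, beside 6.56% and 6.73% of all genes.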

How the data were processed

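The authors isolated total RNA with RNeasy kits, made stranded poly(A) libraries (TruSeq) and sequenced paired 52-base reads. Per the submitters' processing notes and the study's methods they used bcl2fastq 2.20.0, aligned with STAR 2.7.2b to GRCm38 and counted on GENCODE genes with featureCounts 1.6.2. The deposited values are whole-number counts per gene, neither normalized nor filtered, and short mRNAs yield fewer counts per molecule, so levels between genes are compared per kilobase of gene model.

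Columns under 1000000 counts were left out. In edgeR 4.0.16 (R 4.3.3), genes passing filterByExpr by group (minimum count 10) were scaled by TMM and tested in 1 robust quasi-likelihood fit of 62 libraries with group and extraction pool, with Benjamini-Hochberg adjustment over all 18971 genes. CPM are counts in 1000000 after TMM scaling. Alternatives were the study's procedure (voomWithQualityWeights, limma 3.58.1 and duplicateCorrelation by mouse, consensus correlation 0.0282; run on all 62 libraries, among them 1 that the study left out for wound healing and immune genes and that its text does not name), DESeq2 1.42.0, other scalings and filters, no pool term, blocks by cage or mouse, an offset for gene length, all 64 columns, and libraries left out. The fits without hypothalamus psilocybin 4 weeks replicate 5 (alone or with the length offset) or PFC psilocybin 3 h replicate 7, and the comparison of pools, were added after the data were seen.

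Members and lists were chosen with earlier results of these data known. Named were the stalk, X-linked and paralog members with Rpsa, Rps6, Rpl3 and Rps27a, the 5 highest and 5 lowest per kilobase, the 3 smallest p in each psilocybin or interaction test, up to 5 called in each direction elsewhere, and 2 members of each further list. A few genes that these rules would name are not reported here. The further lists were ribosomal proteins outside the pattern, TOP mRNAs, ribosome biogenesis, mTORC1 and TOP control, mitochondrial ribosomal proteins, and markers of regions and cell types.

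Per the labels, the same replicate number marks the same cage within a region and, with equal treatment and harvest, the same mouse across regions. Deviations from group means correlated between same-numbered libraries with means of 0.0638 to 0.239 within regions (lowest pair -0.262) and 0.0388 to 0.148 across regions of a mouse (lowest -0.253). No 2 libraries of the same group were duplicates (lowest chi-square per degree of freedom 3.85 over 210 pairs within groups). P-values measure the spread between these samples. The edgeR fit was tested on counts simulated from these data, with changes set in the PFC at 3 h. It recovered 5 of 66 genes changed 1.2-fold, 29 of 66 changed 1.5-fold and 53 of 66 changed 2-fold, with 5 false calls.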

Additional observations from a re-analysis of the deposited data

Results flagged for a closer look

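Of 264 combinations of a measure and a group, 39 held a library set apart by Dixon's test. Its distance to the nearest other library, as a share of the whole range of the group, was over the 95% critical value. The members varied together and some were named from these same comparisons. A chance rate of about 1 in 20 therefore does not apply to this tally. Of the 39, 33 were in hypothalamus psilocybin 4 weeks, and the library was replicate 5 in each. Its share of counts on the members was 3.85%, with the next at 1.36% (gap 0.861 of the range). For the stalk genes the gap was 0.824 for Rplp0, 0.904 for Rplp1 and 0.922 for Rplp2. For large-subunit genes it was 0.865 for Rpl3, 0.751 for Rpl10, 0.804 for Rpl22, 0.830 for Rpl22l1, 0.825 for Rpl39, 0.799 for Rpl7, 0.623 for Rpl7l1, 0.846 for Rpl23a, 0.723 for Rpl15, 0.894 for Rpl29, 0.896 for Rpl13a, 0.948 for Rpl36, 0.905 for Rpl13, 0.889 for Rpl12, 0.863 for Rpl23 and 0.909 for Rpl41. For small-subunit genes it was 0.895 for Rpsa, 0.790 for Rps6, 0.879 for Rps4x, 0.830 for Rps27a, 0.902 for Rps27, 0.745 for Rps27l, 0.901 for Rps29, 0.884 for Rps2, 0.909 for Rps15a, 0.910 for Rps21, 0.931 for Rps28, 0.825 for Rps12 and 0.918 for Rps26. Rpl36 was at 419 CPM in this library and at most at 74.3 CPM in the others of its group.

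The other 6 were in PFC psilocybin 3 h, and the library was replicate 7 in each. The gap was 0.667 for Rpl29 (140 CPM, next 86.7 CPM), 0.623 for Rpl36 (102 and 60.7 CPM), 0.753 for Rpl13 (178 and 97.8 CPM), 0.602 for Rps21 (267 and 163 CPM), 0.741 for Rps28 (68.2 and 33.3 CPM) and 0.582 for Rpl41 (374 and 216 CPM).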

How the results depend on the processing

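The counts of members called after psilocybin and in the interaction tests were 0 under each alternative run. Between harvests in the PFC of psilocybin mice the count of 1 became 16 in the study's procedure, 8 with only the groups compared, 2 with the length offset and 0 with total counts only, with no filter or with no extraction pool (19.1%, 7.85%, 7.35%, 6.56%, 1.31% and 3.51% of all genes), and it ranged from 1 to 6 when a library was left out. In PFC vehicle mice it became 0 with no filter (1.01% of all genes). In the hypothalamus the count of 0 became 1 in vehicle mice under the study's procedure and 2 in psilocybin mice with DESeq2 (shares of all genes given above). In psilocybin mice it also became 1 with at least 10 counts in every library, where the share of all genes is not given here. Between regions the count in vehicle mice at 3 h (10) became 34 in the study's procedure, 24 with total counts only and 17 with the length offset, and ranged from 10 to 23 with a library left out. In vehicle mice at 4 weeks (17) it became 49, 39, 26, 8 with no extraction pool and 45 with only the groups compared, with a range of 17 to 35. In psilocybin mice at 3 h (9) it became 37, 28, 15 and 35 with only the groups compared, with a range of 10 to 26. In psilocybin mice at 4 weeks (71) it became 37 with only the groups compared and ranged from 41 to 71. The shares of all genes called between regions, in the same order of groups, were 62%, 67.1%, 66.2% and 65.1% in the study's procedure, 56.8%, 57.2%, 58% and 58.7% with the length offset and 57.1%, 65.9%, 60.8% and 49.1% with only the groups compared, and 53.6% in vehicle mice at 4 weeks with no extraction pool. Between regions and in the PFC of psilocybin mice between harvests, the shares without replicate 5 are given above. For the other fits with a library left out they are not given here. No direction of a called member reversed, and the cause of these changes in the counts was not tested beyond the libraries named.

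With the replicate block (cage number within region) the counts were 0 in the 4 psilocybin comparisons, 1, 1, 0 and 0 between harvests and 10, 18, 11 and 62 between regions (4.19%, 5.2%, 0.553% and 1.01%, then 54.6%, 55.2%, 55.7% and 56.2% of all genes), and with the mouse as a block they were 10, 19, 12 and 55 between regions (53.3%, 55%, 55.4% and 54.8%). The pairing moved no count by over 1.5 times. Members that share sequence with pseudogenes or paralogs, and changes below the intervals given, also limit these counts.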
